A study of Mus musculus with 8 samples.

Results

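The genes described here are 28 genes that make cholesterol or control its level, measured in the cortex of newborn mice with the R342X mutation of Phf6 and of wild-type mice. They were taken by name, as 20 enzymes of synthesis, 5 genes of the sterol-sensing switch and 3 genes of sterol transport, storage and turnover, and 28 of the 53392 genes in the files carried those names. The list, and Nsdhl within it, were chosen by differences already seen between mutant and wild-type values of these genes, so the differences between genotypes below are a description and are used to support nothing. All 28 passed the filter on low counts, which 20097 genes passed. From library to library most of the enzymes went up and down together. Nsdhl did so too, and its own levels overlapped between genotypes. Relative to the other enzymes it stood lower in all 4 mutant libraries than in any wild-type library, as did 0.841% of all tested genes. Cyp46a1, which clears cholesterol from neurons, had every mutant library above every wild-type library, as did 2.95% of all tested genes.

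The groups were R342X mutants (4 libraries) and wild-type mice (4 libraries), all of the FVB/N strain and at postnatal day 0. Phf6, on chromosome X, encodes a nuclear protein that carries PHD-type zinc fingers, and the mutation turns an arginine codon into a stop. The labels name no sex, litter or batch and do not say that libraries came from separate animals, so p-values measure only the spread between these libraries, which may be technical. Mutant libraries held between 30469745 and 39453169 estimated reads and wild-type libraries between 48841467 and 74266937, so each wild-type library was the deeper one. Member genes still had at least 176 reads in every library (Ebp, the lowest). Phf6 ranged over 18.4 to 19.2 TPM among mutants, against 29.0 to 42.3 TPM among wild-type libraries, and its log2 fold change, mutant over wild type, was -0.90 ± 0.08 (SE; adjusted p = 0.00226 by the quasi-likelihood test of edgeR with Benjamini-Hochberg adjustment). TPM is a read count scaled by transcript length to a fixed sum per library, so TPM levels can be compared between genes.

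Cells make cholesterol from acetyl-CoA. The mevalonate arm builds isoprenoid units and joins them into farnesyl diphosphate, and the squalene and sterol arm condenses farnesyl diphosphate into squalene, closes the rings to lanosterol and trims lanosterol to cholesterol. Transcription of these enzymes is governed by SREBP-2, the product of Srebf2, a membrane-bound factor that SCAP escorts out of the endoplasmic reticulum when sterol is low and that INSIG proteins hold back when sterol is high. Brain cholesterol is made in place, because lipoproteins of the blood do not cross the blood-brain barrier, and demand is high while neurites and myelin form. Its main way out of the brain is hydroxylation by CYP46A1 in neurons.

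Promoters of members that the results turn on are shown here as RefSeq gives them on GRCm38.p6, each from 250 bases before to 50 bases after the start of transcription and read 5′ to 3′ along the gene. Capitals mark 2 motifs searched on both strands. CCAAT is the box bound by NF-Y and reads ATTGG where it lies on the opposite strand. The other motif, TCACNCCAC, is a form of the sterol regulatory element bound by SREBP. The motifs do not overlap in these windows. Nsdhl is shown as the gene set apart, Hmgcs1 as the holder of the sterol element, Idi1 and Msmo1 as the members that differed most between libraries, and Cyp46a1 as the member whose genotypes did not overlap.
Nsdhl promoter, chrX:72918271-72918570, plus strand: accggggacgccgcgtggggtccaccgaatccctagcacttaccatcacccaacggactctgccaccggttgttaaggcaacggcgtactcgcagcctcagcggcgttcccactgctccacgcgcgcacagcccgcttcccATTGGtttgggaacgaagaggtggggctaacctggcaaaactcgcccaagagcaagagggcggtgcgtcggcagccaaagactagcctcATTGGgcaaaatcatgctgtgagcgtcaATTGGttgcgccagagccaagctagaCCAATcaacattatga
Hmgcs1 promoter, chr13:119690101-119690400, plus strand: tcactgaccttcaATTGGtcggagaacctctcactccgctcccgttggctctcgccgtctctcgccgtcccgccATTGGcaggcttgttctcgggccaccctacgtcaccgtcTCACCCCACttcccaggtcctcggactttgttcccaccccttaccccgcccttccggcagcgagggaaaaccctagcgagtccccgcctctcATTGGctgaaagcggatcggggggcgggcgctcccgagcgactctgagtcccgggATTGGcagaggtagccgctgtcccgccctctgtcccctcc
Idi1 promoter, chr13:8885356-8885655, plus strand: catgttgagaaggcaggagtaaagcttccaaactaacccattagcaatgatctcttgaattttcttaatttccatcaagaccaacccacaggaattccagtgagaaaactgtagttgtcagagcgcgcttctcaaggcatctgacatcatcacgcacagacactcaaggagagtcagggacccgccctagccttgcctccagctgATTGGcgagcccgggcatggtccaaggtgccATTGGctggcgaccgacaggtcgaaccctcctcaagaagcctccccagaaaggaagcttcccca
Msmo1 promoter, chr8:64733529-64733828, minus strand: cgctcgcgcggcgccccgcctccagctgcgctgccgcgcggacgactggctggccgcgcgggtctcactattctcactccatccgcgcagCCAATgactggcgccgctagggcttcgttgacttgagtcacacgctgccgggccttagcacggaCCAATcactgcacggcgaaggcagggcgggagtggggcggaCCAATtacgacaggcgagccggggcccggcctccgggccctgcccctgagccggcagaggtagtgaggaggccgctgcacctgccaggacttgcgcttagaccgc
Cyp46a1 promoter, chr12:108334066-108334365, plus strand: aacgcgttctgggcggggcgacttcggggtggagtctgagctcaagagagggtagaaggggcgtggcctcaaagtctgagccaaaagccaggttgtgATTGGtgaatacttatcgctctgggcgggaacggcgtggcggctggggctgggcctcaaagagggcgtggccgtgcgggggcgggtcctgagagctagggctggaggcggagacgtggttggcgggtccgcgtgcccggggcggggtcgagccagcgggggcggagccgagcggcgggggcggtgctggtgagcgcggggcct
The promoter table held 24 of the 28 members, without Fdft1, Fdps, Sqle and Stard4. A CCAAT box lay in at least 1 window of 22 of those 24 members, against 41.1% of all 27025 genes in the table, and the members without it were Acat2 and Scap. The sterol element in the form searched lay in 1 of the 24, Hmgcs1, against 1.40% of all genes. Nsdhl and Hmgcs1 each held 4 CCAAT boxes, Msmo1 3, Idi1 2 and Cyp46a1 1. A match is a description of letters in a window and not a bound site.

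Most of the pathway differed between libraries in a way that crossed genotype. Along the leading principal component of all tested genes (log2 CPM, 35.3% of the variance), mutant replicates 1 to 3 lay beside wild-type replicate 1 (called set 1), and wild-type replicates 2 to 4 beside mutant replicate 4 (called set 2). With the 28 members left out of the component, an alternative added after the data were seen, the same libraries lay together. These sets come from the data, are not groups of the study, and no label sets them apart, so differences between them are given with no test. The 20 enzymes summed to 1871 to 2152 TPM in the libraries of set 1 and to 1286 to 1425 TPM in those of set 2. By genotype the same sums were 2009.5, 2129.9, 1871 and 1354 TPM in mutant replicates 1 to 4 and 2152, 1425, 1375 and 1286 TPM in wild-type replicates 1 to 4, so mutant replicate 4 lay among the low wild-type libraries and wild-type replicate 1 above every mutant.

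**Figure D1:**
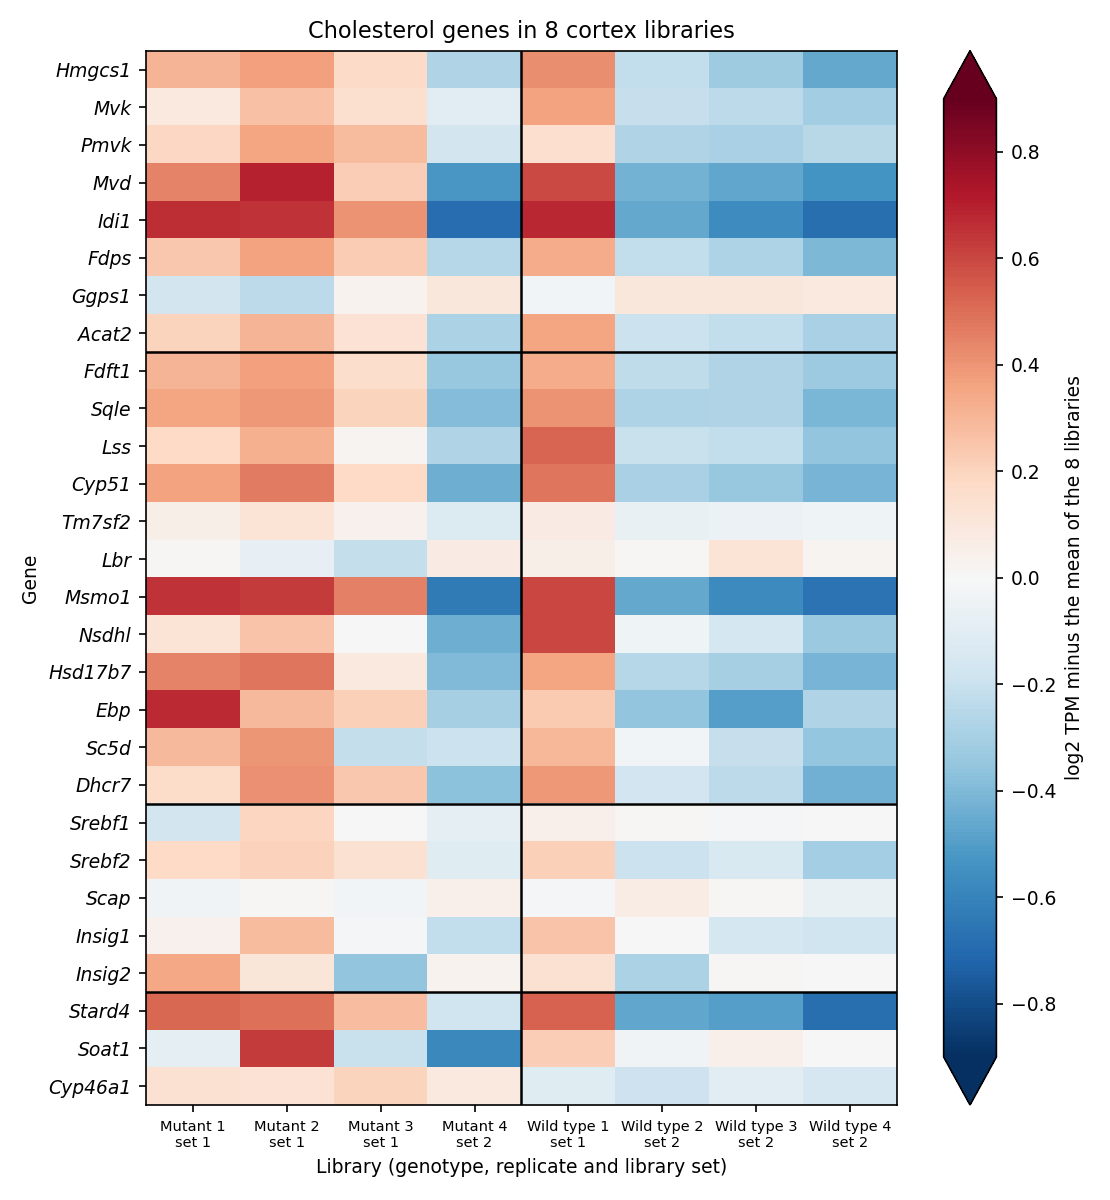
Log2 TPM of each of the 28 genes in each library, minus the gene's mean over the 8 libraries (colour), with mutants left of the vertical line, wild type right of it and horizontal lines between the mevalonate arm, the squalene and sterol arm, the control genes and the last 3 genes. Most enzyme rows are red in mutant replicates 1 to 3 and wild-type replicate 1 and blue in the other 4 libraries, while Cyp46a1 is red in the 4 mutants and blue in the 4 wild-type libraries.

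In a fit with genotype and library set together, 24 of the 28 members had a log2 difference above 0 (set 1 minus set 2), against 49.1% of all tested genes, and the median was 0.48, against -0.006 over all tested genes. A difference above 0.5 was found for 12 members, against 6.02% of all genes, and below -0.5 for 0 members, against 7.05%. Every library of set 1 lay above every library of set 2 in CPM for 19 members, against 18.2% of all genes, and below for 1 member, Scap, against 15.1%. In TPM the sets overlapped for Scap, at 50.7 to 52.2 TPM in set 1 and 49.6 to 54.3 TPM in set 2.

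The widest swings in the mevalonate arm belonged to Idi1 and Mvd. Idi1, which interconverts the isoprenoid building blocks, stood at 83.2, 82.4, 69.7 and 32.6 TPM in mutant replicates 1 to 4 and at 84.0, 38.2, 35.4 and 32.8 TPM in wild-type replicates 1 to 4. Mutant replicate 4 was thus the lowest library and wild-type replicate 1 the highest, and the log2 difference between sets was 1.17 ± 0.07 (SE), the widest of the 28. Mvd, the decarboxylase that makes the isoprenoid unit, had 62.5, 74.1, 53.7 and 32.0 TPM in mutants and 69.2, 34.3, 33.2 and 31.7 TPM in wild type, with mutant replicate 4 again among the low libraries and wild-type replicate 1 among the high ones, and a set difference of 0.94 ± 0.08. Hmgcs1, the HMG-CoA synthase that commits carbon to the pathway, was the member with the highest level. It had 498, 521, 455 and 333 TPM in mutants and 539, 346, 323 and 293 TPM in wild type, and its set difference was 0.55 ± 0.06.

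The other genes of this arm moved less. The kinases Mvk and Pmvk differed between sets by 0.36 and 0.34 on the log2 scale, the farnesyl diphosphate synthase Fdps by 0.49 and Acat2, the cytosolic thiolase at the head of the pathway, by 0.44. Ggps1, which diverts farnesyl diphosphate to geranylgeranyl groups for protein anchoring rather than to sterols, went the other way at -0.08 ± 0.05. Its levels ran from 34.1 to 41.1 TPM in set 1 and from 42.6 to 43.1 TPM in set 2, while in CPM the sets overlapped.

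In the squalene and sterol arm Msmo1, the oxidase that starts removal of the methyl groups next to the sterol hydroxyl, swung most. It had 79.9, 78.6, 69.4 and 32.6 TPM in mutant replicates 1 to 4 and 77.1, 36.9, 34.1 and 32.1 TPM in wild-type replicates 1 to 4, a set difference of 1.07 ± 0.08. Set differences of the lanosterol demethylase Cyp51 (0.70), the desaturase Sc5d (0.63), the squalene epoxidase Sqle (0.61), the last reductase Dhcr7 (0.61), the ketoreductase Hsd17b7 (0.59), Nsdhl (0.58), the squalene synthase Fdft1 (0.53), the isomerase Ebp (0.49) and the cyclase Lss (0.48) followed. Tm7sf2 and Lbr, both of which reduce the same double bond of the sterol ring, had small set differences of 0.06 ± 0.04 and -0.11 ± 0.05. By level, Tm7sf2 still had 108.9 to 115.7 TPM in set 1 and 97.4 to 103.5 TPM in set 2, without overlap. In CPM its sets overlapped. Lbr also holds chromatin at the nuclear envelope, and its levels ran from 14.9 to 18.8 TPM over the 8 libraries.

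Among the control genes the factor Srebf2 showed the pattern in a small form. Its levels were 154, 158, 150 and 127 TPM in mutants and 158, 119.5, 124 and 110 TPM in wild type, a set difference of 0.27 ± 0.04, with each library of set 1 above each of set 2. Insig1, which SREBP itself switches on, differed by 0.28 and Insig2 by 0.30, with overlapping TPM in both cases. Srebf1, whose products mainly drive fatty acid genes, was at 0.02 ± 0.04, and the escort gene Scap was at -0.15 ± 0.04. Outside synthesis, Stard4, a carrier that moves sterol between membranes, had 16.4, 16.2, 13.9 and 10.1 TPM in mutants and 16.6, 8.30, 8.12 and 7.17 TPM in wild type, a set difference of 0.93 ± 0.06. Soat1, which esterifies cholesterol for storage, differed by 0.29 and Cyp46a1 by -0.01.

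Genes next to the pathway, in 4 lists drawn up with earlier results of these data known, differed less between sets. The 10 fatty acid synthesis genes had a median set difference of 0.20, with 9 above 0. In that list Elovl6, an elongase, was at 0.55 ± 0.07 and Acly, which makes the acetyl-CoA that both pathways use, at 0.51 ± 0.04. The medians were -0.02 for 11 partners of SREBP processing and sterol turnover in the endoplasmic reticulum, 0.05 for 8 genes of LXR and sterol efflux and -0.02 for 10 genes that use isoprenoids.

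Cell type markers also differed between the sets, which were drawn from all tested genes, these markers included. Their differences between sets are thus in part built in, and nothing is read from them. Of all tested genes, 49.1% were above 0 in the set difference. The 8 oligodendrocyte lineage markers summed to 183 to 191 TPM in set 1 and 137 to 162 TPM in set 2, with 6 of 8 genes above 0. The 8 radial glia and dividing cell markers summed to 404 to 458 TPM in set 1 and 467 to 486 TPM in set 2, with 8 of 8 below 0. All 8 vessel and meninges markers and all 5 red blood cell genes were below 0 in the set difference, though their sums overlapped (246 to 284 TPM in set 1 and 245 to 343 TPM in set 2 for vessels, 2431.5 to 7321 and 3499.6 to 10446 for red blood cells). Sums of the 8 astrocyte markers (392.2 to 428 TPM in set 1, 313 to 392.7 TPM in set 2, 6 of 8 above 0), the 7 microglia markers (103 to 124 and 92.4 to 104 TPM, 3 of 7 above 0) and the 6 neuron markers (4255 to 4432 and 4024 to 4291.5 TPM, 3 of 6 above 0) overlapped as well. None of these markers was at 0 in every library. The part of cell makeup in the set difference of the cholesterol genes was not tested, and in bulk tissue fewer cells of a type and less RNA per cell cannot be told apart.

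On genotype alone, mutant and wild-type levels overlapped for every member except Cyp46a1. The edgeR fit called 0 of the 28 members, against 0.0199% of all tested genes. At an unadjusted p under the 0.05 threshold it held 3 members (Cyp46a1, Pmvk and Lbr), against 13.7% of all genes, and DESeq2 called 1 member, Cyp46a1, against 2.0% of all genes. Members' log2 fold changes had a median of 0.18, with 21 above 0 and 7 below, against a median of 0.001 over all genes. They ran from -0.17 ± 0.06 for Lbr to 0.49 ± 0.29 for Msmo1, and the genes with the widest set differences had the widest errors. Set 1 holds 3 mutants and 1 wild-type library, so folds on genotype alone carry part of the set difference where a gene has one.

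With library set as a term beside genotype, the folds of 18 members changed sign and the median was -0.07, with 5 above 0 and 23 below, against -0.004 over all genes. Errors were smaller, with Idi1 at -0.13 ± 0.07 and Msmo1 at -0.05 ± 0.08. The library set was drawn from the same counts, which by itself narrows errors, and the p-values of this fit do not allow for that. Apart from Nsdhl, Cyp46a1, Lss and Insig1, members lay between -0.13 and 0.10. Lss stood at -0.18 ± 0.06 (edgeR adjusted p = 0.221) and Insig1 at -0.16 ± 0.07 (adjusted p = 0.299). At an unadjusted p under 0.05 this fit held 7 members, against 13.7% of all genes. After adjustment it called 1 member, Nsdhl, as lower, against 0.602% of all tested genes called in either direction and 0.363% called as lower.

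**Figure D2:**
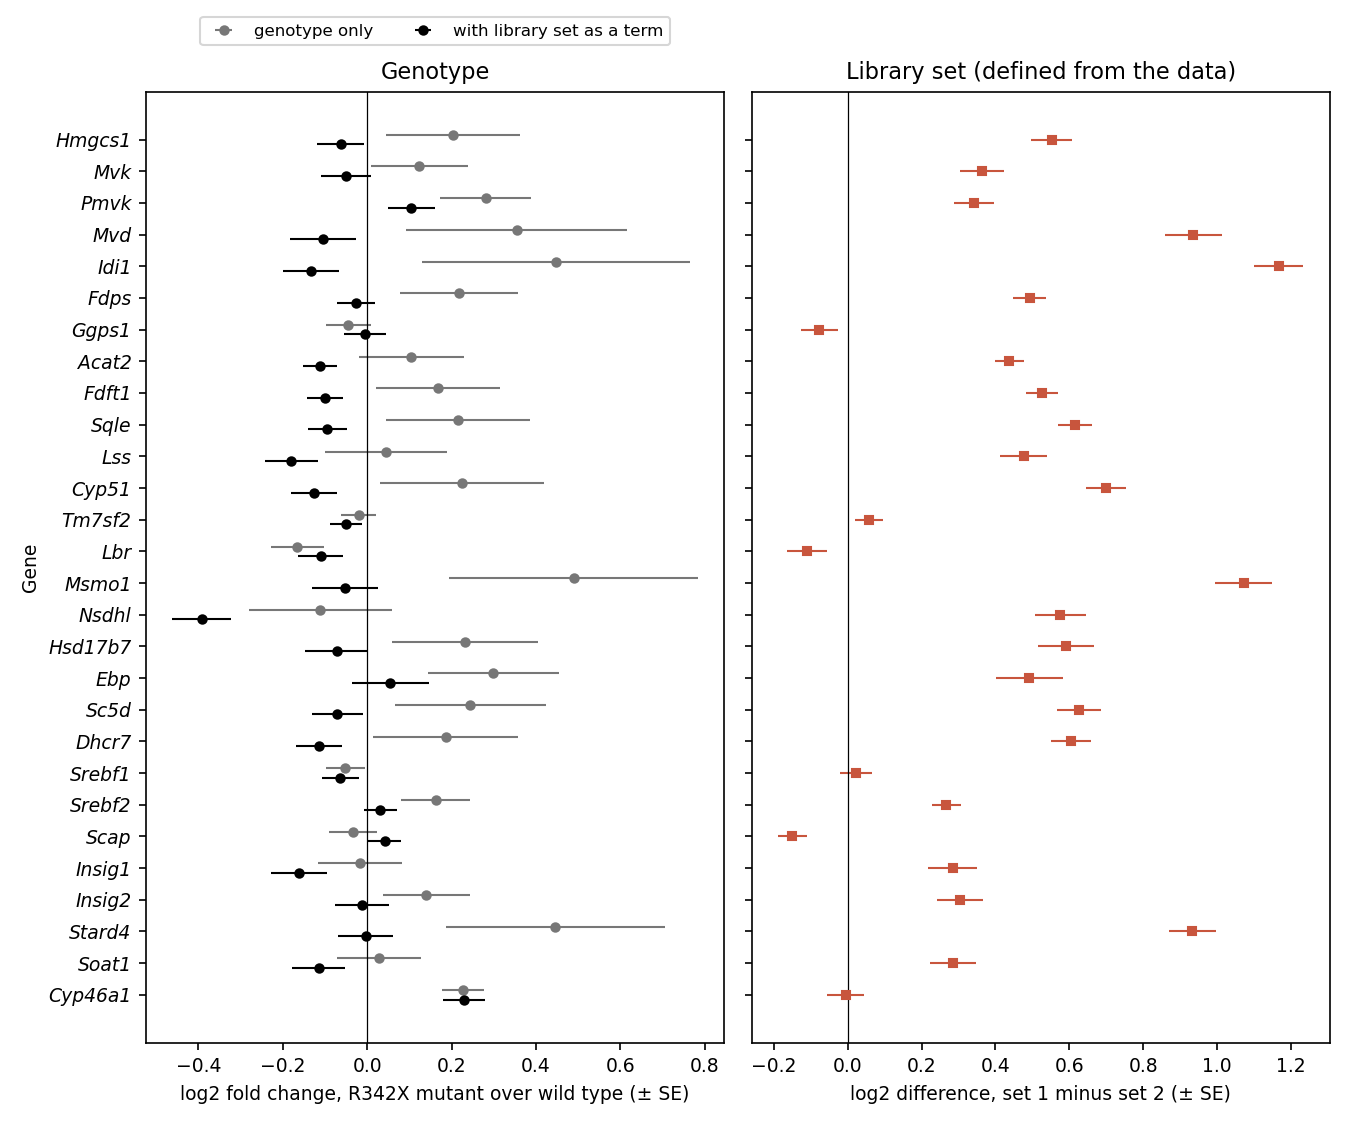
Left, log2 fold change of each member, mutant over wild type (± SE), in the fit on genotype alone (grey) and with library set as a term (black); right, log2 difference of set 1 minus set 2 (± SE), with genes down the page. Nsdhl at -0.39 lies furthest left among the black points, Cyp46a1 at 0.23 lies at the same place in both fits, and Idi1 and Msmo1 have set differences above 1.

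Nsdhl encodes the dehydrogenase that acts straight after Msmo1 and removes the oxidised methyl group as carbon dioxide. The gene is X-linked, and its loss underlies CHILD syndrome in humans and the bare patches and striated phenotypes in mice. In GRCm38 it runs from 72918557 to 72958514 on the plus strand of chromosome X (ENSMUSG00000031349.4). Its levels were 35.0, 38.4, 32.2 and 23.7 TPM in mutant replicates 1 to 4 and 48.7, 31.3, 28.8 and 25.5 TPM in wild-type replicates 1 to 4. Over all 8 libraries the genotypes overlapped. Mutants averaged 32.3 ± 6.28 TPM, against 33.6 ± 10.4 TPM for wild type (SD, n = 4 each). Within set 1 the 3 mutants lay below wild-type replicate 1, and within set 2 mutant replicate 4 lay below the 3 wild-type libraries.

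As a log2 difference of mutant minus wild type, Nsdhl was at -0.45 within set 1 and -0.32 within set 2, where 1 genotype has a single library each time. The fit on genotype alone gave -0.11 ± 0.17 (edgeR adjusted p = 0.772), and the fit with library set gave -0.39 ± 0.07 (adjusted p = 0.031). When libraries were left out of the second fit in turn, the value stayed between -0.45 and -0.32, and 6 of 8 fits lost the call. The call was lost without mutant replicates 1 (adjusted p = 0.0671), 2 (0.0774), 3 (0.0514) or 4 (0.0811) and without wild-type replicates 1 (0.343) or 3 (0.0533). It was kept without wild-type replicates 2 (0.0471) or 4 (0.0127).

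**Figure D3:**
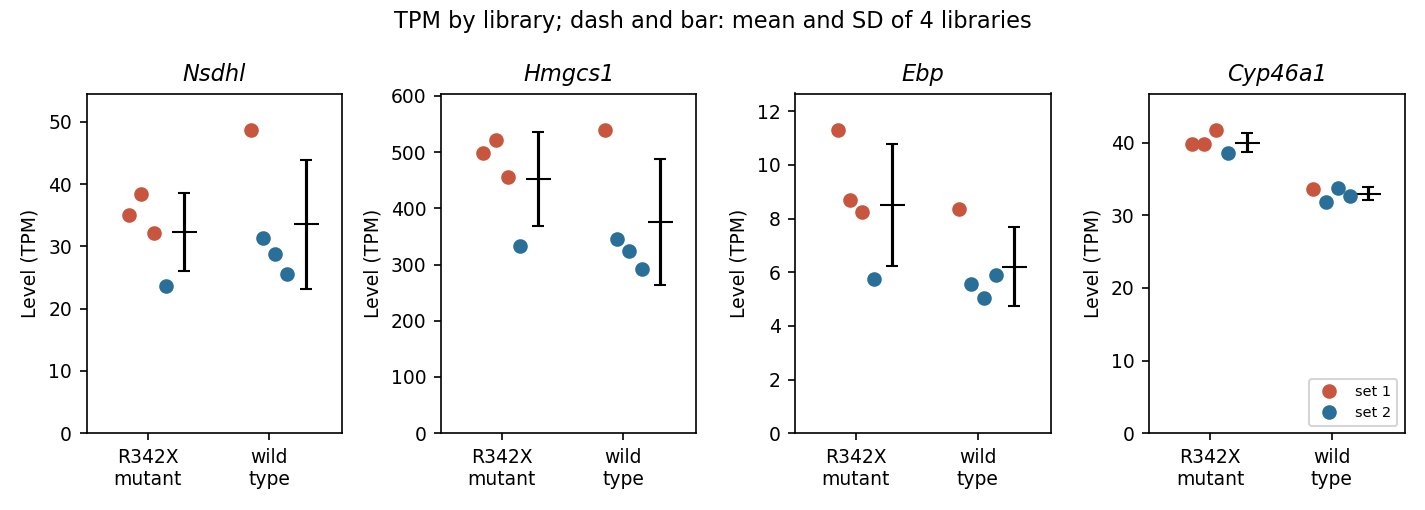
TPM of Nsdhl, Hmgcs1, Ebp and Cyp46a1 in each library, with mutants left of wild type, points coloured by library set and a dash and bar for the mean and SD of 4 libraries. Nsdhl, Hmgcs1 and Ebp follow the library set within each genotype, while the 4 mutants lie between 38.6 and 41.8 TPM for Cyp46a1, above the 4 wild-type libraries.

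Set against the other 19 enzymes inside each library, Nsdhl was low in mutants. Its log2 CPM minus the mean log2 CPM of the other enzymes was -1.05, -1.0, -1.04 and -1.02 in mutant replicates 1 to 4 and -0.65, -0.68, -0.75 and -0.87 in wild-type replicates 1 to 4. The 4 mutants lay within 0.05 of one another and below every wild-type library, at a mean of -1.03 ± 0.02 in mutants and -0.74 ± 0.10 in wild type (SD, n = 4 each). The difference was -0.29, or -0.27 on the log2(TPM + 0.5) scale, and -0.38 within set 1 and -0.25 within set 2. Leaving out each library in turn kept it between -0.33 and -0.26. Of the 20 enzymes treated this way, Nsdhl was the 1 with every mutant below every wild-type library, against 0.841% of all tested genes set against the enzymes in the same way, and Ebp was the 1 with every mutant above, against 0.707%. These counts use the contrast that set Nsdhl apart, and nothing is read from them. The 19 other differences ran from -0.36 for Lbr to 0.32 for Msmo1. In both of these the genotypes overlapped, and mutant replicate 4 lay with the wild-type libraries and wild-type replicate 1 with the mutants.

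**Figure D4:**
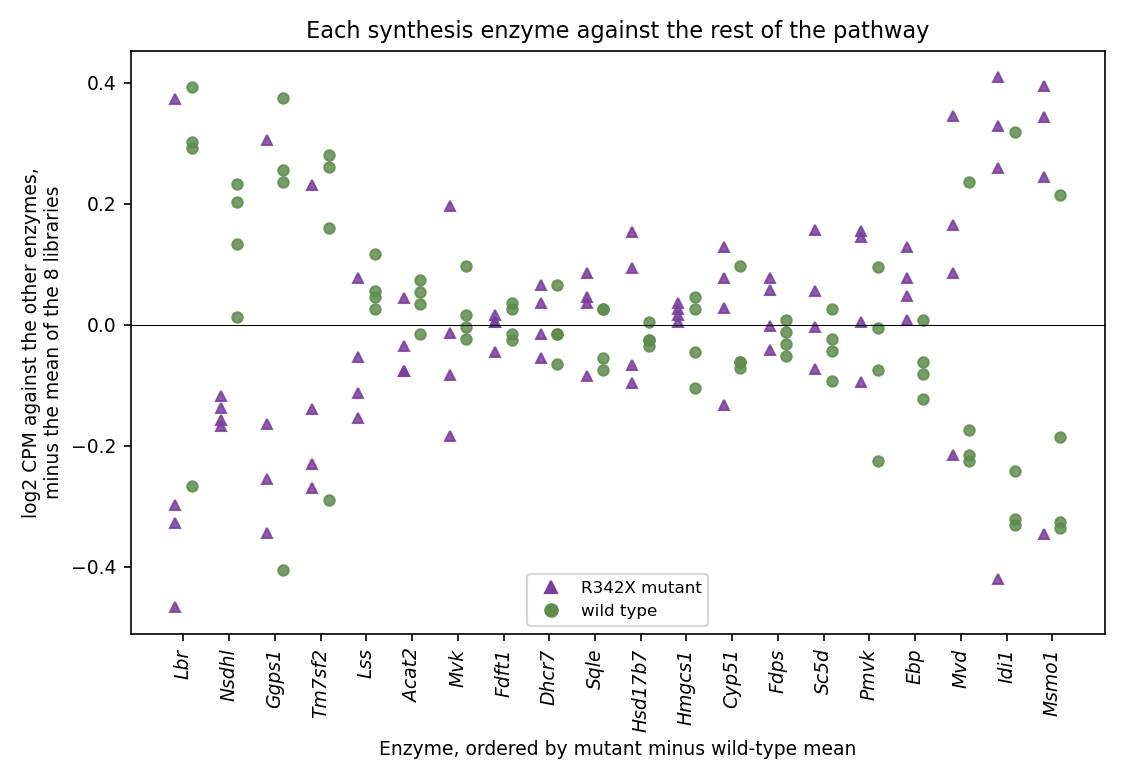
Log2 CPM of each of the 20 enzymes minus the mean of the other 19 in the same library, centred on the 8 libraries, for mutants (triangles, left) and wild type (circles, right), ordered by the difference of the genotype means. The 4 Nsdhl triangles lie together below all 4 circles, while Lbr, Ggps1, Tm7sf2, Mvd, Idi1 and Msmo1 are spread widely within each genotype.

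Ebp, the sterol isomerase, is the only other X-linked enzyme of the list, and its loss causes a chondrodysplasia in humans and the tattered phenotype in mice. It had 11.3, 8.70, 8.25 and 5.76 TPM in mutants and 8.35, 5.55, 5.05 and 5.89 TPM in wild type, the lowest mean levels of the 28. Its genotypes overlapped, and its log2 fold change was 0.30 ± 0.16 on genotype alone (edgeR adjusted p = 0.412) and 0.06 ± 0.09 with library set (adjusted p = 0.850). Relative to the other enzymes it stood at -3.58 ± 0.05 in mutants and -3.71 ± 0.05 in wild type (SD, n = 4 each), a difference of 0.13, and on the TPM scale the genotypes overlapped.

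The files assign reads to 2 transcripts of Nsdhl. The coding transcript carried 99.4% of Nsdhl TPM in mutants and 99.6% in wild type, so the gene's level is that of its coding messenger RNA. Over the 28 members 181 transcripts were listed, and the leading one was coding for 27. The exception was Lss, whose leading entry was a retained-intron transcript at 36.5% ± 2.3 of Lss TPM in mutants and 38.6% ± 4.4 in wild type. Shares of leading transcripts over 90% in both genotypes were found for 6 members, and the error of assigning reads to transcripts is not known.

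Genes near Nsdhl were examined for position. Of 38 tested genes within 1 Mb of Nsdhl, the fit on genotype alone called 2, both lower, against 0.0199% of all tested genes. The fit with library set called 3, the third being Nsdhl, against 0.602%. Nsdhl, at the centre of the window, was chosen by differences between genotypes. Haus7 and Arhgap4 were already in view when the window was planned, so nothing is read from these counts. The median log2 fold change of the 38 genes was -0.04 on genotype alone and -0.02 with library set. Haus7, which belongs to the augmin complex that branches spindle microtubules, had 32.2, 31.3, 28.6 and 29.1 TPM in mutants and 44.9, 43.7, 45.5 and 47.2 TPM in wild type, with no overlap (log2 fold change -0.66 ± 0.06, edgeR adjusted p = 0.00226). Arhgap4, a GTPase-activating protein, had 2.66, 2.34, 2.26 and 2.03 TPM in mutants and 5.90, 5.03, 5.21 and 5.69 TPM in wild type (-1.07 ± 0.11, adjusted p = 0.00566). Arhgap4 overlaps Naa10 and L1cam in the annotation, so its reads are less certain, and its call was lost without mutant replicate 2 (log2 fold change -1.03, edgeR adjusted p = 0.0536).

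**Figure D5:**
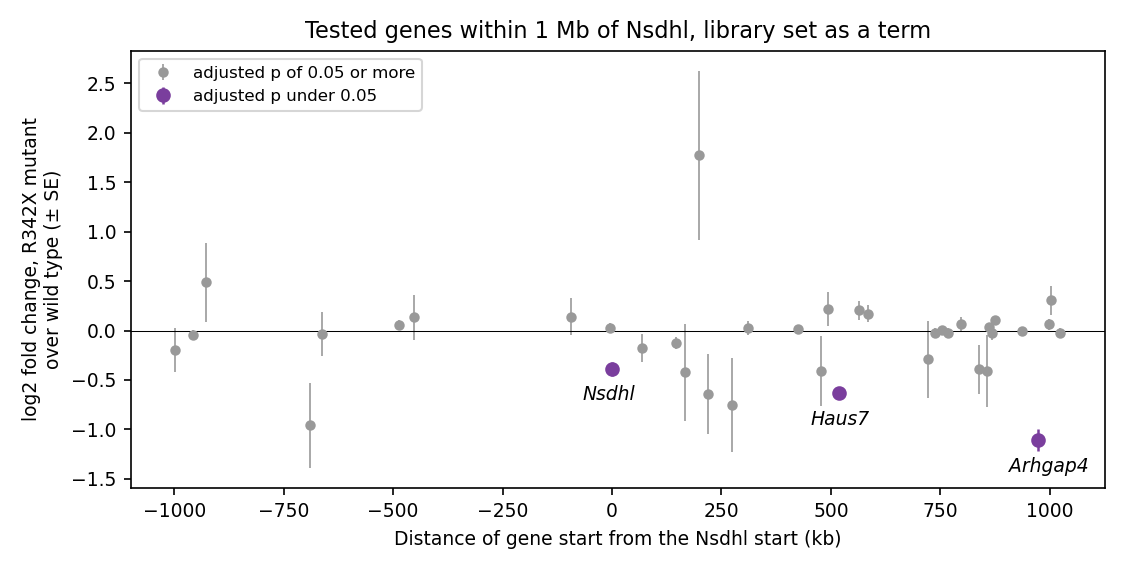
Log2 fold change (mutant over wild type, ± SE, library set as a term) of each of the 38 tested genes near Nsdhl against the distance of its start from the Nsdhl start in kb. Nsdhl at 0 kb, Haus7 at 518.8 kb and Arhgap4 at 972.9 kb lie below 0 with an adjusted p under the threshold, and the other points scatter on both sides of 0.

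Cyp46a1 differed in the other direction. It encodes the neuronal cytochrome P450 that hydroxylates cholesterol so that it can leave the brain, and in GRCm38 it runs from 108334381 to 108362234 on the plus strand of chromosome 12 (ENSMUSG00000021259.5). Its levels were 39.9, 39.8, 41.8 and 38.6 TPM in mutant replicates 1 to 4 and 33.6, 31.9, 33.8 and 32.7 TPM in wild-type replicates 1 to 4. All 4 mutants lay above all 4 wild-type libraries, with averages of 40.0 ± 1.29 TPM for mutants against 33.0 ± 0.89 TPM for wild type (SD, n = 4 each). Of the 28 members it was the single one with every mutant above every wild-type library in CPM, against 2.95% of all tested genes, and 0 members lay below, against 3.20%. A single member is near the share of all genes, so the separation is not read as a result about the members.

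The log2 fold change of Cyp46a1 was 0.23 ± 0.05 in both fits, and edgeR did not call it (adjusted p = 0.179 on genotype alone and 0.0587 with library set). When libraries were left out of the fit with library set in turn, 0 of 8 fits called it. The value then ran from 0.18 to 0.28 and the edgeR adjusted p from 0.0652 to 0.406. DESeq2 on genotype alone gave 0.23 with an adjusted p of 0.00383. The difference was 0.28 within set 1 and 0.17 within set 2. Its coding transcript averaged 30.8 ± 1.49 TPM among mutants, against 25.0 ± 0.72 TPM among wild-type libraries, and took 77.0% ± 2.5 of Cyp46a1 TPM in mutants and 75.8% ± 1.7 in wild type (SD, n = 4 each).

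Marker sums are given beside this difference, with no share over all genes, and nothing is read from them. Neuron markers summed to 4171 to 4432 TPM in mutants and 4024 to 4311 TPM in wild type and overlapped, with 4 of 6 genes above 0. Astrocyte markers summed to 392.3 to 428 TPM in mutants and 313 to 392.2 TPM in wild type (6 of 8 above 0). These ranges all but touched, at 392.26 TPM in mutant replicate 1 and 392.16 TPM in wild-type replicate 1. Microglia markers summed to 104 to 124 TPM in mutants and 92.4 to 103 TPM in wild type (7 of 7 above 0). In either fit edgeR called 0 astrocyte and 0 microglia markers. Cortex identity markers summed to 1124.5 to 1244 TPM in mutants and 1317 to 1376 TPM in wild type (5 of 7 below 0). Among them Neurod6, a factor of cortical excitatory neurons, was called lower with library set (log2 fold change -0.32 ± 0.06, edgeR adjusted p = 0.0305), against 0.363% of all tested genes. Radial glia and dividing cell markers (404 to 486 TPM in mutants, 458 to 473 TPM in wild type, 8 of 8 below 0) and oligodendrocyte lineage markers (162 to 191 TPM in mutants, 137 to 188 TPM in wild type, 8 of 8 above 0) overlapped, as did vessel and red blood cell markers. None of these markers was at 0 in every library, and their part in the levels of Cyp46a1 or Nsdhl was not tested. Of 4 liver-type genes, checked because cortex should lack them, 1 was at 0 in every library and the sum was at most 0.807 TPM.

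In the authors' deposited table all 28 members were present, with folds that run mutant over wild type as read from Phf6, which stands there at -0.932. For Nsdhl the authors' deposited table gave a log2 fold of -0.341 ± 0.089 (adjusted p = 0.0013), and for Cyp46a1 the authors' deposited table gave 0.204 ± 0.074 (adjusted p = 0.0184). In the authors' deposited table the other 26 members lay between -0.129 and 0.042, with a smallest adjusted p of 0.162, and 2.78% of its 14991 genes with an adjusted p were under the 0.05 threshold. The model behind the authors' deposited table is not given in the sources used here, and it was made from the same libraries. Its folds and errors may therefore be another measure than those of the fits above. Ebp, for example, stood there at 0.011 ± 0.047, against 0.30 ± 0.16 in the edgeR fit on genotype alone and 0.06 ± 0.09 with library set. Nsdhl, at -0.341 there, was at -0.11 on genotype alone and -0.39 with library set.

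Of the 39 genes of the 4 neighbouring lists, edgeR called 0 on genotype alone, against 0.0199% of all tested genes, and 0 with library set, against 0.602%. At an unadjusted p under 0.05 each fit held 5 of the 39, against 13.7% of all genes. DESeq2 on genotype alone called 2, Apoe and Fads1, against 2.0% of all genes. Partners of SREBP processing had a median log2 fold change of -0.02 on genotype alone and -0.01 with library set, and Rnf139, a ubiquitin ligase of the endoplasmic reticulum, had the smallest p (-0.25 ± 0.09, adjusted p = 0.290). In LXR and sterol efflux genes the medians were 0.03 and -0.01, with 4 genes above 0 and 4 below on genotype alone. The 8 genes summed to 866 to 995 TPM in mutants and 695 to 825 TPM in wild type, without overlap. Most of that sum was Apoe. No share over all genes was taken for such a sum, so nothing about the list is read from it. Apoe, the main lipid carrier of the brain, averaged 819 ± 66.5 TPM among mutants, against 646 ± 58.1 TPM among wild-type libraries (SD, n = 4 each). Its log2 fold was 0.30 ± 0.07 on genotype alone (edgeR adjusted p = 0.181) and 0.26 ± 0.07 with library set (adjusted p = 0.103). Fatty acid genes had medians of 0.04 and -0.06, with the desaturase Fads1 at -0.15 ± 0.04 (adjusted p = 0.235), and genes that use isoprenoids -0.04 and -0.05, with Rabggta, a subunit of the Rab prenylation enzyme, at -0.10 ± 0.05 (adjusted p = 0.413).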

How the data were processed

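RNA was sequenced as messenger RNA libraries from frozen cortex, per the labels' protocols. The submitters' processing notes name Salmon 0.12.0, DESeq2 and GRCm38; no source used here states read filters, bias options or strand. The deposited library files hold an expected count and a TPM for every transcript, per the file headers. The authors' deposited table holds a mean normalized signal, a log2 fold change and its error, and raw and adjusted p-values for every gene.

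Expected counts and TPM were summed per gene, and counts were rounded. Of 53392 genes, 53355 matched GENCODE M21 when versions were ignored. The genotype test was edgeR 4.0.16 (R 4.3.3; TMM, default filter, quasi-likelihood F test, two-sided, Benjamini-Hochberg over 20097 genes), with genotype alone and with library set (the sign of the first component of log2 CPM, prior count 2) as a term. Errors of folds come from the fold and its F statistic. The code was tested on simulated data. Alternatives were DESeq2 1.42.0, no filter, at least 5 CPM in at least 4 libraries, a replicate block, offsets for transcript length, and each library left out.

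Members, lists and tests were chosen with earlier results of these data known. Nsdhl, Ebp, members called in either fit and members with separate genotypes were given by library. The others were given by range, except a few given by library for their set difference, chosen after their values were seen. Of each related list the gene with the smallest p was named. Other genes of the pathway are not reported here. Same-numbered libraries correlated at 0.244, -0.027, -0.085 and 0.318 in their deviations from the group means, so the numbers were not taken as pairs.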

Additional observations from a re-analysis of the deposited data

Results flagged for a closer look

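Wild-type replicate 1 stood far from the other 3 wild-type libraries for 13 members, out of 58 groups of 4 libraries examined by Dixon's gap test, which flags about 1 group in 20 by chance. It was the highest for 12 of them. In the mevalonate arm its levels were 57.5 TPM for Mvk, 67.6 for Pmvk, 69.2 for Mvd, 84.0 for Idi1 and 187 for Acat2. In the squalene and sterol arm they were 135 TPM for Fdft1, 158 for Sqle, 48.7 for Lss, 99.1 for Cyp51, 77.1 for Msmo1 and 20.1 for Hsd17b7. The sterol carrier Stard4 was at 16.6 TPM, and Ggps1 was the member for which this library was the lowest, at 39.4 TPM. These genes share libraries and move together, so the flags are not separate observations, and no member was flagged in mutants.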

How the results depend on the processing

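Under the alternatives run on the fit with genotype alone, the log2 fold change of Nsdhl (-0.11) went to -0.39 with library set as a term and ranged from -0.20 to 0.08 without single libraries, with 0.0012 when mutant replicate 4 was left out and 0.08 when wild-type replicate 1 was. With library set the folds were -0.06 for Hmgcs1, -0.05 for Mvk, -0.10 for Mvd, -0.13 for Idi1, -0.03 for Fdps, -0.10 for Fdft1, -0.09 for Sqle, -0.18 for Lss, -0.13 for Cyp51, -0.05 for Msmo1, -0.07 for Hsd17b7, -0.07 for Sc5d, -0.11 for Dhcr7, 0.04 for Scap, -0.01 for Insig2, -0.11 for Acat2, -0.0039 for Stard4 and -0.11 for Soat1, each opposite in sign to genotype alone. Soat1 was at -0.12 with offsets for transcript length. Without single libraries the lowest and highest folds crossed 0 for Lss (-0.03 to 0.22; -0.03 without mutant replicate 2, -0.01 and -0.02 without wild-type replicates 3 and 4), Tm7sf2 (0.0029 without mutant replicate 4), Insig1 (0.05 without mutant replicate 4, 0.06 without wild-type replicate 1) and Soat1 (-0.02 to 0.12; -0.00086 and -0.02 without mutant replicates 1 and 2, -0.02 without wild-type replicate 4). The causes were not tested.

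Members called on genotype alone numbered 0, with 1 by DESeq2 (Cyp46a1), 1 with library set (Nsdhl) and 0 to 2 without single libraries. The 2 were Pmvk (0.37, edgeR adjusted p = 0.0488) and Cyp46a1 (0.24, adjusted p = 0.0444) without mutant replicate 4. With library set the count was 0 to 1 without single libraries. Genes near Nsdhl called numbered 1 to 3 without single libraries, with 1 without mutant replicate 2. Genes of the 4 neighbouring lists called numbered 2 by DESeq2 (Apoe and Fads1) and 0 to 1 without single libraries (Apoe without mutant replicate 4). With a replicate block edgeR called 0 members against 0.0995% of all genes (20 genes), with 13 members at an unadjusted p under 0.05 against 19.8% of all genes, Nsdhl was at -0.10 and Cyp46a1 at 0.23 (adjusted p = 0.0802). Same-numbered libraries were not shown to be pairs, and mutant replicate 2 correlated best with wild-type replicate 1. The shallower mutant libraries, and the single library of 1 genotype in each set, limit what the fit with library set can show.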
